A study of Mus musculus with 7 samples.

Results

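The endocrine cells of the pancreatic islet include alpha cells, which release glucagon, beta cells, which release insulin, and delta cells, whose hormone is somatostatin. Here the open-chromatin regions called in both alpha cell libraries and in no beta or delta cell library were described. ATAC-Seq, in which a transposase inserts sequencing adapters into accessible DNA, had been carried out on sorted islet cells of healthy mice, with 2 alpha, 3 beta and 2 delta libraries. The animals carried the mIns1-H2b-mCherry reporter and Rosa-LSL-YFP together with either Sst-Cre or Gcg-Cre, so beta cells were marked by a reporter driven by the Ins1 promoter and alpha or delta cells by a hormone-gene Cre that switched on YFP. Animals were pooled by sex before sorting and each sample held a median of 20000 cells, so a library stood for a pool and not for 1 animal, and the age was not given in the sources used here. Peaks had been called in each library separately. The intervals of all 7 lists were merged where they overlapped by at least 1 bp, which gave 834695 regions, and 3239 of them (0.388%) were called in both alpha lists and in none of the other 5. These members were chosen by their presence and absence in the lists, so their number, peak strength and absence elsewhere are description and carry no test. Absence means that no peak was called, since reads outside peaks were not part of the files used here.

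Regions of this kind are of interest because cell identity is written largely in distal regulatory DNA. Enhancers are short stretches at which sequence-specific transcription factors displace nucleosomes, and an enhancer used in 1 cell type is often closed in its neighbours, whereas most promoters are open in all of them. Large MAF factors are basic leucine zipper proteins that act in islet endocrine cells, among them Mafa in mature beta cells. Forkhead factors, Rfx6, Neurod1 and Pax6 act in all the endocrine types.

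The sequences at the summits of 8 of the 12 strongest members, ranked by the lower of their percentiles in the alpha 1 and alpha 2 lists, are shown first because 7 of the 12 shared 1 short motif. They are 6 of those 7, followed by 2 without it. The seventh, nearest to Rps29, is not shown because 80.5% of its window is repeat sequence, and it holds 2 matches. Each is 200 bases of the plus strand of GRCm38 (mm10), centred on the summit of the stronger alpha peak. Capitals mark every match, on either strand, to any of 14 short motifs, and among them TGCTGAC and its reverse complement GTCAGCA are the MAF half-site.
In an intron of Ptprm, chr17:66752499-66752698: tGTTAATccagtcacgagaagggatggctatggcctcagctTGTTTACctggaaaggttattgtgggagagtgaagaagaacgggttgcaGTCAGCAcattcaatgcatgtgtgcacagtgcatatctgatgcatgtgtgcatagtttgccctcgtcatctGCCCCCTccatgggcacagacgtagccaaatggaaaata
Intergenic, nearest to Triml1, chr8:42340097-42340296: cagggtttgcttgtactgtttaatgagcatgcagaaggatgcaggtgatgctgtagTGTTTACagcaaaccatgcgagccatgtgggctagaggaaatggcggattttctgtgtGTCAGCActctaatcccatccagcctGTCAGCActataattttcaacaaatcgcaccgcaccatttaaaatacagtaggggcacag
Intergenic, nearest to Trpc7, chr13:57055662-57055861: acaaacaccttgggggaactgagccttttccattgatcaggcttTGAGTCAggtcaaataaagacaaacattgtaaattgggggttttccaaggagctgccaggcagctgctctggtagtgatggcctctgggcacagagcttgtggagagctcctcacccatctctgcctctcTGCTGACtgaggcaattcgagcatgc
In an intron of Gm28981, nearest to Klf7, chr1:64289177-64289376: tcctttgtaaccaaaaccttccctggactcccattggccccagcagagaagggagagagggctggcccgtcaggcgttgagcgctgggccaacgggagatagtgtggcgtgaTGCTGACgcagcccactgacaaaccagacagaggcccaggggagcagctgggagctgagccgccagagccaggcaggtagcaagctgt
In an intron of Gm41335, nearest to Gsdmc, chr15:63310455-63310654: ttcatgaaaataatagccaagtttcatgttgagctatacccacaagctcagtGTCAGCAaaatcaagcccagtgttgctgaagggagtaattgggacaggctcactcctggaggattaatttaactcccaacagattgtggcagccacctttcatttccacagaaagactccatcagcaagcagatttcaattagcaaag
Intergenic, nearest to Pgrmc2, chr3:41062013-41062212: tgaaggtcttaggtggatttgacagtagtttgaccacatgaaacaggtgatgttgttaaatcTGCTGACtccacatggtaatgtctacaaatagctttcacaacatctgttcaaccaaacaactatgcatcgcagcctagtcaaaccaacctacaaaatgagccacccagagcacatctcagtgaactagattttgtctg
Intergenic, nearest to Clint1, chr11:45634665-45634864: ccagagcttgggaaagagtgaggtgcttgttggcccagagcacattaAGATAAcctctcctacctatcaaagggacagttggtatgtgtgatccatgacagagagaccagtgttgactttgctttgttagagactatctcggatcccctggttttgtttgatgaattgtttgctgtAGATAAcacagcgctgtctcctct
In an intron of Caln1, chr5:130553888-130554087: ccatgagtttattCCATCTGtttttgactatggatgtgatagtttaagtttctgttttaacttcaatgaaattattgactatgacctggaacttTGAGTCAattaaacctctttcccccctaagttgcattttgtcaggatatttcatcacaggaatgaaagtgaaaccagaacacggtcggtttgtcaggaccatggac
The first 6 of these windows each hold at least 1 MAF half-site, and the window nearest to Triml1 holds 2. The window nearest to Clint1 instead holds 2 GATA matches (AGATAA), and the Caln1 window an E-box (CAGATGG) and an AP-1 match (TGANTCA).

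Few regions that were open in both alpha libraries were open there only. Of 45517 regions called in both alpha lists, 3239 (7.12%) were called in no other list and 17759 (39.0%) in all 7. Among regions called in exactly 2 libraries, the alpha pair gave the largest count of the 15 pairs that did not include the beta 1 library, with 3239 against 2895 for alpha 2 with delta 1, 2750 for the 2 delta libraries and 978 for beta 2 with beta 3. Pairs that joined 2 cell types were thus as numerous as some pairs of 1 cell type. The beta 1 list held 518503 distinct intervals, against 75860 to 158066 in the other 6, and its pairs reached 11497 regions. Without the beta 1 list the members numbered 5747, and without the delta 1 list 4877, while with alpha 2 or alpha 1 as the only alpha list there were 44379 and 64525. Outside the set by a single list were 2527 regions called in both alpha lists and in beta 1 alone, 1568 with delta 1 alone and between 231 and 526 with each of the other 3 alone. The file names carry a tag written like a sequencing lane number, although no source used here says what it stands for. It was the same for alpha 1, alpha 2 and beta 1, and within these 3 lists 11822 regions were called in both alpha lists and not in beta 1. No alpha library carried the other tag, which was that of beta 2, beta 3 and both delta libraries, so for those comparisons cell type and whatever the tag marks cannot be told apart.

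**Figure D1:**
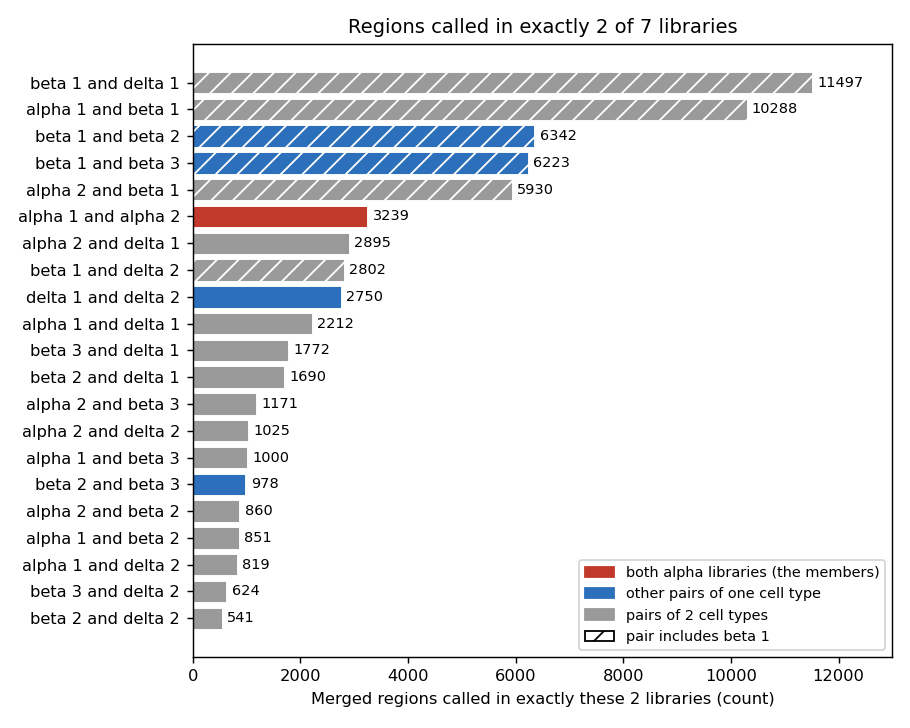
Bars give the number of merged regions called in exactly 2 of the 7 libraries (x axis, count) for each of the 21 pairs (y axis), with the 2 alpha libraries in red, other pairs of 1 cell type in blue, pairs of 2 cell types in grey and pairs with beta 1 hatched. The alpha pair (3239) is the longest bar without beta 1, just above alpha 2 with delta 1 (2895).

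Most members were weak peaks. MACS2 gives each peak a p-value, a q-value (p adjusted over the list) and a fold enrichment over the local background, and each peak was also ranked by percentile within its own list. In alpha 1 the median member had a −log10 p of 3.40, a −log10 q of 1.13 and a fold enrichment of 3.0, at percentile 42.4. In alpha 2 the median member had a −log10 p of 3.26, a −log10 q of 1.02 and a fold enrichment of 2.93, at percentile 36.6. Regions called in both alpha lists and at least 1 other list had median percentiles of 80.5 and 80.2. The value 3.40 was the single commonest −log10 p in the alpha 1 list and was held by 1009 members (31.2%). Likewise 1157 members (35.7%) stood at 3.26, the commonest value in the alpha 2 list. A −log10 q of at least 2 was reached in both alpha lists by 600 members (18.5%), in 1 of them by 1315 and in neither by 1324 (40.9%). The strength of a member in 1 alpha library said little of its strength in the other, with a Spearman rho of 0.19 across the 3239 members, against 0.74 across the 42278 other regions called in both alpha lists. Regions on the genome are not independent replicates, so no p is given for either.

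The share of regions without a beta or delta call fell with peak strength. Where the lower of the 2 alpha percentiles was under 20, 988 of 4063 regions (24.3%) were members. From the 60th to the 80th percentile 571 of 13427 (4.25%) were, from the 80th to the 90th 33 of 8160 (0.404%), and above the 90th 0 of 8856. Every region above the 90th percentile in both alpha lists was thus called in at least 1 beta or delta library as well. Of 30306 regions with a −log10 q of at least 2 in both alpha lists, 600 (1.98%) were members. Members were 200 to 933 bp wide with a median of 302 bp, close to the 320 bp of regions called only in the 2 delta libraries and narrower than the 710 bp of regions called in all 7. Other peaks were often near, with 1065 members (32.9%) lying within 500 bp of a beta or delta peak and 308 (9.51%) within 100 bp. The median gap to the nearest such peak was 951 bp, and 2249 bp when the beta 1 list was left out.

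**Figure D2:**
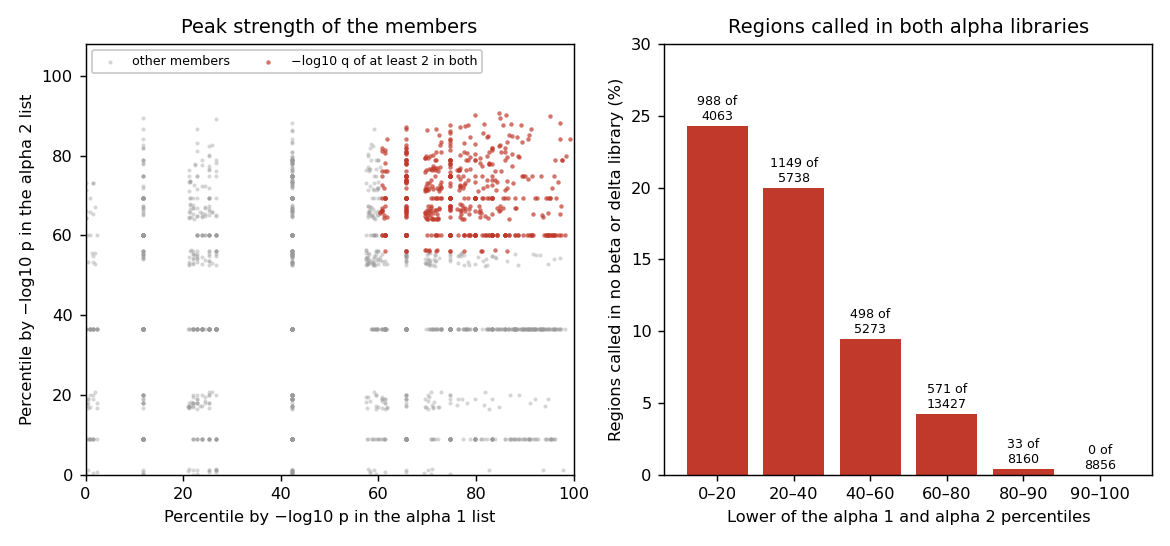
Left, each point is 1 of the 3239 members at its percentile by −log10 p in the alpha 1 list (x axis) and the alpha 2 list (y axis), with the 600 members of −log10 q of at least 2 in both lists in red; the rows and columns of points are tied p-values. Right, bars give the percentage of regions called in both alpha libraries that no beta or delta library shared (y axis) by the lower of the 2 percentiles (x axis), falling from 24.3% to 0.

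The 12 strongest members lay mostly far from known start sites of protein-coding genes. The region at chr17:66752375-66752904, in an intron of Ptprm, which encodes a receptor-type tyrosine phosphatase of cell adhesion, had the highest lower percentile. Its fold enrichment was 10.3 in alpha 1 (percentile 95.2) and 7.79 in alpha 2 (percentile 89.9), and the nearest peak of another library was 1324 bp away. The member in an intron of Caln1, a calcium-binding protein of the nervous system, at chr5:130553874-130554103, was less even, with a fold enrichment of 14.2 in alpha 1 and 9.15 in alpha 2. The member 217 kb upstream of Clint1 at chr11:45634587-45635032 reached 8.02 in alpha 1 and 8.75 in alpha 2. An intronic member of Dclk2, a doublecortin-like kinase, at chr3:86802828-86803193, reached 7.25 in alpha 1 and 8.90 in alpha 2. Strength in both alpha lists follows from ranking by the lower percentile, and absence from the other 5 lists from the rule. The only promoter-proximal region among the 12, at chr12:31921023-31921337, had its summit 1539 bp downstream of a start site of Cog5, a subunit of the Golgi tethering complex, with a fold enrichment of 7.04 in alpha 1 and 7.69 in alpha 2. Of the rest, 6 were intergenic or lay in introns of non-coding genes near Klf7, Triml1, Trpc7, Gsdmc, Rps29 and Pgrmc2, with fold enrichments of 6.52 to 9.15 in alpha 1 and 7.5 to 9.86 in alpha 2.

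In position class, the members resembled the delta-only regions, among other sets, and not the regions open everywhere. Promoter-proximal regions, within 3 kb of any annotated transcription start site (TSS), made up 702 of the 3239 members (21.7%, 95% Wilson interval 20.3 to 23.1). The share was 20.3% (18.8 to 21.8) of 2750 regions called only in both delta libraries, 16% (15.5 to 16.7) of 14335 regions called only in beta lists, in at least 2 of the 3, and 61.4% of the 17759 regions called in all 7. Most beta-only regions were called in beta 1 and 1 other beta list (6342 with beta 2, 6223 with beta 3). Beta-only values here and below thus mostly follow the beta 1 list. The 978 regions called only in beta 2 and beta 3 were 19.8% promoter-proximal (17.5 to 22.5). Intronic regions made up 37.4% of the members (35.8 to 39.1), distal intergenic regions 36.9% (35.3 to 38.6), and exonic regions 3.80%. Regions called only in alpha 2 and delta 1, a pair of different cell types, had a like profile. They were 22.1% promoter-proximal, 35.9% intronic and 37.5% distal intergenic. Among all 834695 merged regions 49.0% were distal intergenic and 16.2% promoter-proximal, so the members held fewer intergenic and more promoter-proximal regions than the whole. Of the 699109 merged regions that were not promoter-proximal, 361150 were called in beta 1 alone. Values over all merged regions, here and elsewhere, thus largely follow the weak calls of that list. The intervals cover counting error only and treat regions as independent, which neighbouring regions are not. The 600 members with a −log10 q of at least 2 in both alpha lists had 22.5% promoter-proximal regions (19.3 to 26.0). The median distance from a member's summit to the nearest protein-coding TSS was 35.1 kb, with 42974 bp for the delta-only and 69811 bp for the beta-only regions. Regions called in all 7 had a median distance of 911 bp. Summits within 1000 bp of a protein-coding TSS made up 7.66% of the members and 4.76% of the delta-only regions.

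**Figure D3:**
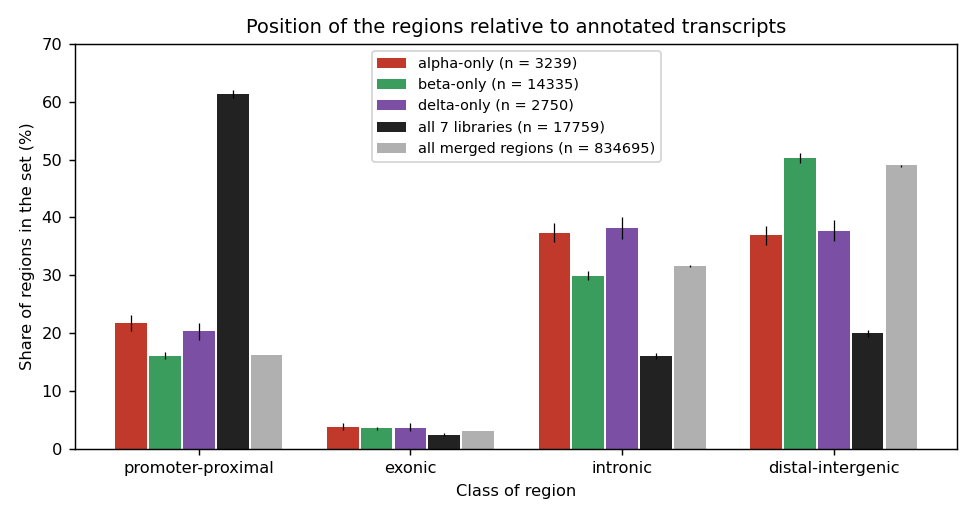
Bars give the percentage of regions (y axis) in each position class (x axis) for the alpha-only members and 4 comparison sets, and lines are 95% Wilson intervals. The members (red) and the delta-only regions (purple) have nearly the same profile, while 61.4% of regions called in all 7 libraries (black) are promoter-proximal.

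The members were spread over the genome. They fell on all 21 chromosomes, 3.37% of them lay within 10 kb of another member, and the median distance from a member to its neighbour was 206 kb. They had 2578 different nearest protein-coding genes, of which 2086 were nearest to 1 member only. On chromosome Y, 25 regions were called in both alpha lists and 4 were members. The study lists its alpha 1 sample as female and its alpha 2 sample as male. If the labels follow that numbering, such calls cannot be read as open chromatin of chromosome Y in alpha 1.

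The MAF half-site was commoner at the members than in any comparison set, a difference of shares that was not tested because the members were selected on their calls. In the 200 bp around the summit, 215 of the 2537 promoter-distal members (8.47%, 7.45 to 9.62) held TGCTGAC on either strand. The share was 4.67% (4.31 to 5.06) in the beta-only, 4.38% (3.60 to 5.32) in the delta-only and 5.42% (4.91 to 5.99) in the all-7 regions, and 3.60% in all 699109 promoter-distal merged regions. Set beside regions called in exactly 2 libraries, the members had the highest share of the 21 pairs, the other 20 lying between 3.29% (alpha 1 with beta 1) and 6.53% (alpha 2 with beta 2). The share was 11.4% (8.82 to 14.6) in the 465 promoter-distal members with a −log10 q of at least 2 in both alpha lists. By the lower of the 2 alpha percentiles it was 6.61% below 40, 13.6% from 40 to 60, 9.55% from 60 to 80 and 39.3% (11 of 28 windows, 23.6 to 57.6) at 80 or more, so it did not rise at every step. The last bin holds the strongest members, whose shared motif prompted the count by strength. For delta-only regions at 80 or more it was 11.1% (3 of 27, 3.85 to 28.1), and for regions of that strength called in both alpha and at least 1 other list 6.78% (411 of 6065). Of the 12 strongest members, 7 held the motif. The letters TGCTGAC can overlap an AP-1 match (TGANTCA), and leaving out windows in which every MAF match did so left 7.73% (6.75 to 8.83) of members against 4.44% of beta-only, 3.97% of delta-only and 4.67% of all-7 regions. Windows of the members had a mean GC content of 46.5% ± 6.87 (SD, n = 2537), within the 45.6% to 48.4% of the 3 comparison sets. The matches were not gathered at the summit more than elsewhere, with a median distance of 43.0 bp in the members and 42.5 to 45.0 bp in the other sets. A match of letters is not a bound site, and MAF family members share this motif.

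For the other 13 motifs the members lay nearer to other sets. The GATA letters were found in 13.7% (12.4 to 15.1) of promoter-distal members, 13.0% of delta-only, 10.8% of beta-only and 10.1% of all-7 regions, with 12.2% in all merged regions. The forkhead letters (TGTTTAC) were found in 5.64% (4.8 to 6.6) of members and 5.47% of delta-only regions, above 3.99% in beta-only and below 8.24% in all-7 regions. The RFX half-site (GTTGCCA) was found in 3.51% (2.86 to 4.30) of members but in 6.43% (5.48 to 7.54) of delta-only regions. The HNF1 half-site (GTTAAT) and the homeodomain core (TAATTA) were likewise commoner in delta-only regions, with 11.6% and 8.30%, than in members, with 7.25% and 4.61%. Against the delta-only regions, the intervals of the members thus overlapped for forkhead and GATA letters and did not overlap for MAF, RFX, HNF1 and homeodomain letters. That is a description and no test, since regions are not replicates. Over all merged regions the shares were 3.40% for forkhead, 2.30% for RFX, 7.54% for HNF1 and 5.96% for homeodomain letters. For HNF1 letters the interval of the members (6.31 to 8.33) included the share over all merged regions. For homeodomain letters their interval (3.86 to 5.50) lay below that share. The delta-only regions lay above all merged regions for both. AP-1 letters were found in 16.6% of members, 19.7% of delta-only, 26.1% of all-7 and 8.23% of all merged regions. For the E-box (CAGATGG), the CTCF core (AGGGGGC), the ETS letters (CCGGAAG), the GC box (GGGCGG), the Iroquois letters (ACATGT), the TEAD letters (CATTCCA) and the CRE (TGACGTCA), the members lay at 7.21%, 2.25%, 1.46%, 3.19%, 5.6%, 3.63% and 0.315%. The corresponding shares over all merged regions were 4.72%, 1.70%, 0.651%, 2.18%, 6.70%, 3.34% and 0.145%. Among the 702 promoter-proximal members, 19.9% held the GC box, against 8.42% of delta-only and 59.4% of all-7 promoter-proximal regions. The MAF half-site was found in 6.13% of them, against 2.51% of delta-only and 3.21% of all-7 promoter-proximal regions.

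**Figure D4:**
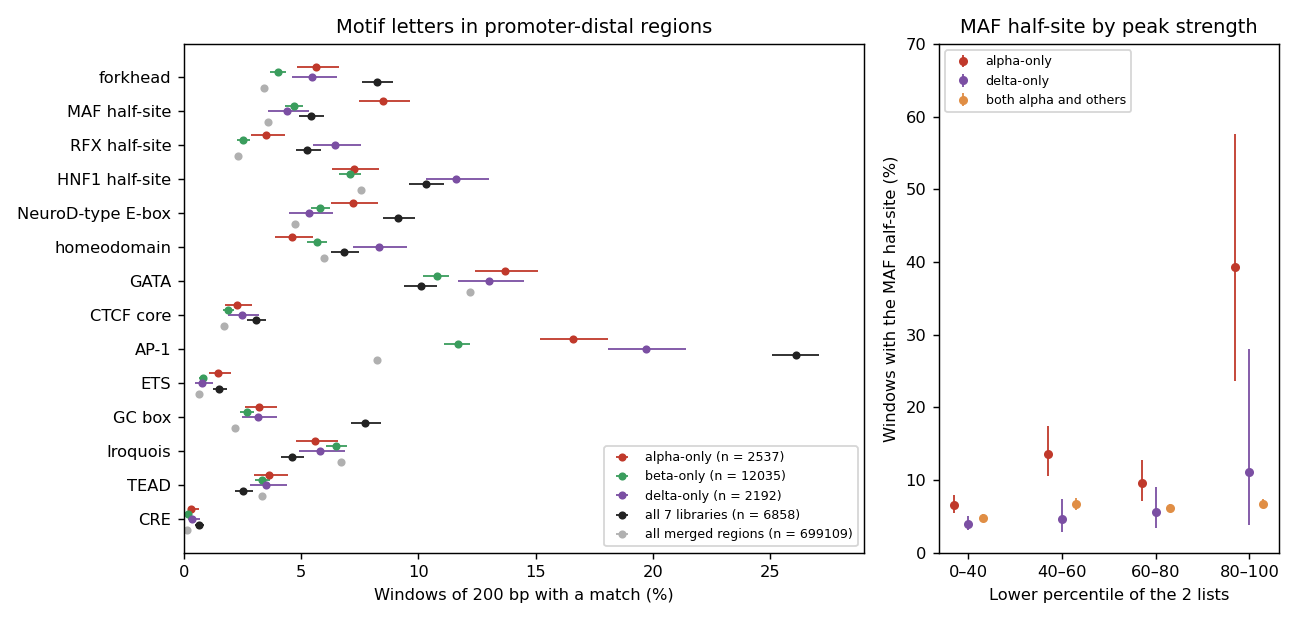
Left, points give the percentage of 200 bp summit windows (x axis) that hold each motif (y axis) in promoter-distal regions of 5 sets, with 95% Wilson intervals; the interval of the members (red) lies above those of the 4 other sets at the MAF half-site alone (8.47% against 3.60% to 5.42%). Right, the share with the MAF half-site (y axis) by the lower percentile of the peak (x axis) in the members (red), the delta-only regions (purple) and regions called in both alpha and other lists (orange), reaching 39.3% in the strongest members.

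Whether alpha libraries carried more of a motif outside the members was tested on the other peaks of each library, although leaving out the members takes alpha-only peaks from the alpha lists while beta-only and delta-only peaks stay in theirs. In each library, peaks that were promoter-distal, reached a −log10 q of 2 and were no members (13870 to 30302 per library) were searched in the same way, and the 2 alpha libraries were set against the other 5 in a two-sided exact permutation test over the 21 choices of 2 libraries, where the smallest possible p is 0.0476. The MAF half-site was found in 4.92% of alpha 1 and 6.42% of alpha 2 peaks, in 5.42%, 5.29% and 5.54% of beta 1, 2 and 3 peaks, and in 5.23% and 4.95% of delta 1 and 2 peaks. Alpha 2 was the highest library and alpha 1 the lowest, so the groups overlapped and the difference of 0.383 percentage points gave p = 0.524 in the exact test (adjusted over 14 motifs, 0.778). Both alpha libraries lay outside the range of the other 5 for 1 of 14 motifs, the GATA letters, with 11.7% and 11.4% against 9.11% to 11.1%. There the difference was 1.15 percentage points (p = 0.143 in the exact test, adjusted p = 0.533). None of the 14 motifs reached an unadjusted p under 0.05 in the exact permutation test. With the members kept among the peaks, a setting chosen after seeing the data, the MAF half-site was found in 5.02% of alpha 1 and 6.61% of alpha 2 peaks, alpha 1 still lay below all 3 beta libraries, and the difference of 0.530 percentage points gave p = 0.286 in the exact test.

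Members near alpha cell genes were few. A gene was counted when a member lay in it or within 10 kb, which held for 2040 of 21911 protein-coding genes (9.31%). Of 18 alpha cell genes 3 had a member (16.7%), of 19 beta cell genes 4 (21.1%), of 9 delta cell genes 1 and of 17 pan-endocrine transcription factors 1. Long genes gather more regions of any kind, and 43.7% of genes over 200 kb had a member against 3.92% of genes under 10 kb. Counted per region, 3 of 416 merged regions at the alpha cell genes were members (0.721%), 4 of 354 at the beta cell genes (1.13%) and 0.501% at all protein-coding genes. With counts this low, the lists cannot be ranked.

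Sequences at members of hormone and lineage genes are shown for the reader to compare, again as 200 bases of the plus strand of GRCm38 with motif matches in capitals.
In Fap, upstream of Gcg, chr2:62502425-62502624: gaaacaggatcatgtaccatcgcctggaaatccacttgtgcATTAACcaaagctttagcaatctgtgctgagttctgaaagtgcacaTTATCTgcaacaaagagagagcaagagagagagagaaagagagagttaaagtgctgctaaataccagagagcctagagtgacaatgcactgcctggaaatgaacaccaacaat
Upstream of Irx1, chr13:71964473-71964672: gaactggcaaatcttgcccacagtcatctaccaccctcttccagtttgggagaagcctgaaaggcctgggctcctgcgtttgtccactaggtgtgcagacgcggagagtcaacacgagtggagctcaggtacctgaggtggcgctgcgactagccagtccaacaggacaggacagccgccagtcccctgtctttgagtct
Upstream of Rfx6, chr10:51676270-51676469: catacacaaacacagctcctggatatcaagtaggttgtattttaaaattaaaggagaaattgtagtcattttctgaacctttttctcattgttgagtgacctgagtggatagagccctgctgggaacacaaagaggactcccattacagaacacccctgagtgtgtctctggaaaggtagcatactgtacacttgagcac
Upstream of Ins1, chr19:52262744-52262943: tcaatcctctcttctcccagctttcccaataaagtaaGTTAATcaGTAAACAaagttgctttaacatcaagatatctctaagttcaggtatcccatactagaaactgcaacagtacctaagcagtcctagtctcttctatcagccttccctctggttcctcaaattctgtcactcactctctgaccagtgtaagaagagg
In Lepr, chr4:101769370-101769569: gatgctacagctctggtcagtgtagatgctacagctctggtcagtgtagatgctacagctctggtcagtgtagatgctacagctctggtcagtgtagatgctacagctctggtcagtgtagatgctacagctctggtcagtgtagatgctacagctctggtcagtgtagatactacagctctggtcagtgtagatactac
The first window holds an HNF1 half-site and a GATA match, the Ins1 window a forkhead match beside an HNF1 half-site, and the Irx1, Rfx6 and Lepr windows none of the 14 motifs. The Lepr window is a tandem array, 99.4% identical to itself at a shift of 24 bases. Such arrays, with at least 70% identity at a shift of 10 to 60 bases, made up 44 of the 3239 member windows (1.36%), 0.291% of delta-only, 1.13% of beta-only and 0.608% of all-7 windows.

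Among alpha cell genes, the strongest member lay next to the glucagon gene. Gcg itself, at chr2:62474530-62483650 on the minus strand, had 8 merged regions in or within 10 kb of it, 4 of them called in both alpha lists, and none was a member. The nearest member, at chr2:62502304-62502817, had its summit 18.9 kb upstream of the Gcg TSS, inside the neighbouring gene Fap, which encodes fibroblast activation protein, a serine protease, and 899 bp from the start of another Fap transcript. It stood at percentile 79.7 in alpha 1 and 80.4 in alpha 2, just below the 33 members whose lower percentile was 80 or more, and the nearest peak of another library was 234 bp away. Irx1, an Iroquois homeobox factor of alpha cells, had a member with its summit 850 bp upstream of its TSS at chr13:71964438-71964730, at percentile 77.2 in alpha 1 and 55.7 in alpha 2. Gria3, a glutamate receptor subunit, had a weak intronic member at percentile 23.9 in alpha 1 and 8.94 in alpha 2. The nearest members of Irx2, Gc and Ttr were 137, 190 and 215 kb from their start sites. The phosphatase gene Dusp10 had 18 merged regions in its window, 4 of them called in both alpha lists, none of them a member, and its nearest member was 31.1 kb from the TSS at percentile 42.4 in alpha 1 and 60.1 in alpha 2.

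Members also lay at genes of the other endocrine types. The member upstream of Ins1, an insulin gene, at chr19:52262656-52263343, stood at percentile 21.2 in alpha 1 and 52.8 in alpha 2, and a peak of another library began 38 bp away. The member at Ins2, the other insulin gene, at chr7:142675462-142675932, lay 3694 bp downstream of the TSS and past the gene, at percentile 11.8 in alpha 1 and 69.5 in alpha 2. Both were thus weak in alpha 1. Ffar1, a receptor for long-chain fatty acids, had a member 2026 bp downstream of its TSS at percentile 69.8 in alpha 1 and 53.0 in alpha 2. Ero1lb, an oxidoreductase of the endoplasmic reticulum that serves insulin folding, had 1 at percentile 11.8 and 36.6. The leptin receptor gene Lepr, the only delta cell gene with a member, had 2, of which 1 lay over its start site at percentile 11.8 in alpha 1 and 36.6 in alpha 2, and the other was the tandem array shown above, at 42.4 and 60.1. Rfx6, which directs endocrine differentiation, had a member with its summit 1386 bp upstream at chr10:51676267-51676545, at percentile 57.6 in alpha 1 and 53.3 in alpha 2, with another library's peak 75 bp away.

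**Figure D5:**
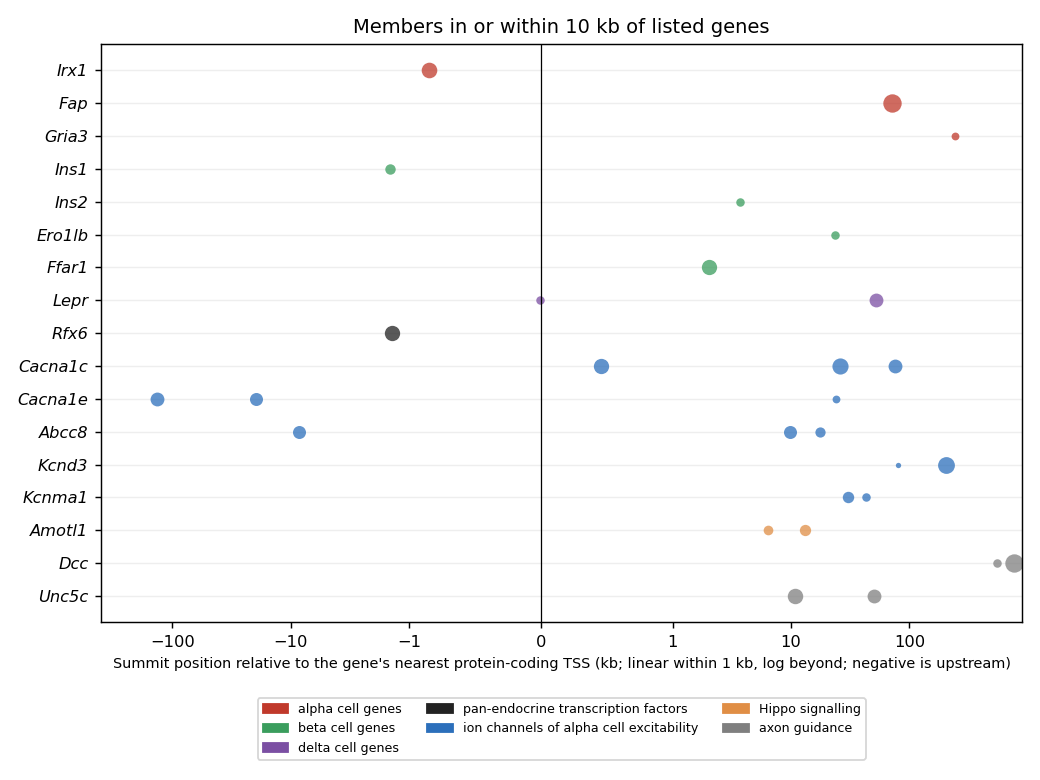
Each point is a member placed by its summit's distance to the nearest protein-coding TSS of the gene named on the y axis (x axis in kb, linear within 1 kb and logarithmic beyond), with a larger point for a higher lower percentile of the 2 alpha lists and a colour for the gene list. Outside the 4 endocrine lists only genes with 2 or more members are drawn. Members of Irx1, Ins1, Rfx6, Lepr and Cacna1c lie within 1.5 kb of a start site.

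Ion channel genes of alpha cell excitability were long, with a median of 157 kb. Of these 20 genes 10 had a member (50.0%), against 23.6% of protein-coding genes of 100 to 200 kb and 43.7% of those over 200 kb. They held 18 members among 1679 merged regions (1.07%). That share was 0.501% at all protein-coding genes, 0.592% at those of 100 to 200 kb and 0.459% at those over 200 kb. Cacna1c, the pore of an L-type calcium channel, had 3, of which the one 456 bp downstream of a TSS stood at percentile 76.3 in alpha 1 and 53.1 in alpha 2. Abcc8, the sulfonylurea receptor subunit of the ATP-sensitive potassium channel, had 3 among only 38 merged regions, at percentiles of 42.4 to 74.6 in alpha 1 and 20.1 to 36.6 in alpha 2. Cacna1e, of an R-type calcium channel, had 3, and Kcnd3 and Kcnma1, of potassium channels, had 2 each. Kcnd2, of an A-type potassium channel, had the strongest, at percentile 78.3 in alpha 1 and 87.6 in alpha 2. Of 19 genes for receptors that act on glucagon release 7 (36.8%, against 9.31% of all protein-coding genes) had 1 member each, 0.740% of their merged regions. Sstr2, the somatostatin receptor of alpha cells, had a member 7187 bp downstream of its TSS at percentile 65.6 in alpha 1 and 73.9 in alpha 2, and Avpr1b, a vasopressin receptor, had one 270 bp upstream of its TSS at 22 and 54.3. Ffar1, Insr, Gria2 and Grik2 were also among them. In the secretory granule and exocytosis list 6 of 19 genes (31.6%, against 9.31% of all protein-coding genes) had a member. These were 0.798% of the list's merged regions, against 0.501% at all protein-coding genes. Of the 6 genes, Syt1, Pcsk2 and Pam are over 200 kb long, a length at which 43.7% of genes had a member. Rab3a, a small GTPase of vesicle release, had a member 322 bp downstream of its TSS at percentile 58.0 in alpha 1 and 65.6 in alpha 2. Pcsk2, the convertase that acts on proglucagon, had an intronic member at 91.6 in alpha 1 and 36.6 in alpha 2.

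Hippo signalling genes had 7 members among 594 merged regions (1.18%, against 0.501% at all protein-coding genes), at 6 of 20 genes (30.0%). Their median length was 70.7 kb, and 14.6% of protein-coding genes of 50 to 100 kb had a member. Yap1, a transcriptional co-activator of the pathway, had a member over its promoter, 91 bp upstream of the TSS, at percentile 58.2 in alpha 1 and 67.2 in alpha 2. Wwtr1, its paralog, had one 117 kb into the gene at 83.3 and 60.1, and Fat4, an atypical cadherin, one at 79.7 and 69.5. Amotl1, Tead1 and Mob1a held the other 4. Wnt signalling had 5 of 26 genes (19.2%, against 9.31% of all protein-coding genes; Fzd6, Lrp6, Axin1, Gsk3b and Ror2) and 0.623% of regions. Axon guidance had 7 of 30 genes (23.3%, against 43.7% of protein-coding genes over 200 kb, the list's median being 215 kb). They held 9 members among 3284 regions (0.274%), the strongest in Dcc, a netrin receptor, at percentile 88.9 in alpha 1 and 79.6 in alpha 2. MAPK signalling with its phosphatases had 1 of 24 genes (Map2k2; 4.17%) and 0.191% of regions, and amino acid transport and metabolism 1 of 18. Markers of other cells that a sort could carry along are short lists, read beside the 9.31% of all protein-coding genes with a member and the 3.92% of those under 10 kb. There were none at 10 acinar, 9 immune, 10 stromal and glial and 3 PP and epsilon cell genes, 1 of 7 duct cell genes (14.3%) and 1 of 9 endothelial genes (Pecam1; 11.1%). At this size the lists do not tell whether other cells were present.

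By nearest start site, 2 genes had 7 members each and no gene had more. For G6pd2, in a gene-poor stretch of chromosome 5, these were 7 of 923 merged regions (0.758%), up to 1200 kb away. For Magi1, which encodes a scaffold protein of cell junctions, they were 7 of 231 (3.03%), from 339 bp to 212 kb from a TSS, with 1 promoter-proximal, 1 exonic, 3 intronic and 2 intergenic. Fhit and Pde4d, which are 1612 and 1504 kb long, had 6 each. Gfra1, a co-receptor for GDNF family ligands, had 5 intronic members among 103 merged regions (4.85%), the highest share of the 10 genes with most members. At Sox9, a factor of progenitor and duct cells, all 5 lay in intergenic DNA between 166 and 838 kb from the TSS, and 1 of them reached a −log10 q of at least 2 in both alpha lists. Gm9747, Ntm, Rbms3 and Runx1t1 had 5 each. All 10 genes exceeded the 0.388% of members among all merged regions, as genes picked for many members must.

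A minority of members lay at start sites, with 446 (13.8%) within 1 kb of any annotated TSS. Summits within 1000 bp of a protein-coding TSS made up 7.66% of members, 4.76% of delta-only, 2.76% of beta-only and 50.3% of all-7 regions. Members overlapped 107 of the 32851 RefSeq promoters, from 250 bases before to 50 after the start (0.326%). That is a low share of promoters for a small set, which made up 0.388% of all merged regions. Members lay within 1 kb of a TSS of 272 of the 21911 protein-coding genes. The strongest such member sat on the start of Cend1, a neuronal protein of cell cycle exit, with its summit 5 bp upstream of the TSS at chr7:141429339-141429664, a fold enrichment of 6.75 in alpha 1 and 6.43 in alpha 2, and another library's peak 295 bp away. Next came Rpl32, a ribosomal protein gene used in every cell, with a fold enrichment of 6.58 and 6.33 and another library's peak 50 bp away. Ppp3ca, the catalytic subunit of calcineurin, Glb1l2, Mmgt1, Adora2b, Dpp7 and Ccdc57 followed, at lower percentiles of 74.6 to 78.2. Adora2b, an adenosine receptor, had a member 89 bp from its TSS with a fold enrichment of 4.93 in alpha 1 and 5.13 in alpha 2, and the nearest peak of another library was 2013 bp away.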

How the data were processed

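Per the labels and the study's methods, the authors trimmed reads with Trimmomatic, aligned them with Bowtie2 to mm10, marked duplicates with Picard, took out blacklisted regions and ran MACS2 on every library by itself. The deposited lists give a score, a fold enrichment (ratio), −log10 p and −log10 q values and a summit per peak, and the lowest −log10 p is 2.01 in each list. Read depth behind a peak is not in these files, so intervals cover counts of regions only. Groups followed the sample labels, although the names of the beta lists carry other cell types. The study describes its cell types as taken from the same animals. A beta library may thus share a pool with an alpha or a delta library, although which ones do was not given. Alpha and delta cells were marked in different crosses, so their libraries cannot share animals. The study lists alpha 1, beta 2 and delta 1 as female and alpha 2, beta 1 and delta 2 as male. If the labels follow that numbering, libraries of 1 number came from different pools. The permutation p-values treat the 7 libraries as independent and measure only the spread between them.

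Here distinct intervals (75860 to 518503 per list) were merged where they overlapped by 1 bp in Python 3.11.15, with the number of regions checked against bedtools 2.31.1 and the steps tested on simulated data. A region took its strongest peak per list and its summit from the list of highest percentile. Classes used GENCODE vM21 in the order promoter (3 kb), exon, intron, downstream (300 bp) and distal intergenic. GRCm38.p6 sequence was searched for 14 motifs. Of the gene lists, all symbols matched protein-coding genes of the annotation, Ero1b under its older name. The members, lists, motifs and tests were chosen with earlier results of these data known. Genes and regions were named by rule: the 12 members of highest lower percentile, the 10 genes nearest to most members, the 8 of highest lower percentile with a member within 1 kb of a TSS, every alpha, beta, delta and pan-endocrine gene with a member, Gcg and Dusp10, and up to 4 genes per other list with most members. The other genes named, among them Irx2, Ttr and Gc for their nearest members, were chosen after their values were seen, and some genes that met a rule are not reported here. Also chosen after the data were seen were the strength bins of the MAF half-site, the AP-1 overlap and the tandem arrays. Alternatives were stricter lists, a margin around members, no chaining, each library left out, the shared file-name tag, other promoter definitions, a 400 bp window and a replicate block.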

Additional observations from a re-analysis of the deposited data

How the results depend on the processing

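The count of 3239 depended on the lists used. Requiring a −log10 q of at least 2 in the alpha lists only left 600 members, and cutting each list to its 50000 strongest peaks left 2090. The 3 lists that share a file-name tag gave 11822, of which 4912 had a −log10 q of at least 2 in both alpha lists. Leaving out 1 library moved the count to between 3481 and 64525, and the members with such a q from 600 to between 677 and 10615, the upper values being those without alpha 2, where regions called in alpha 1 alone are counted. The count stayed within 1.5 times, at 2754 with −log10 q of at least 2 everywhere, 2174 with no other peak within 500 bp and 2791 without chaining. The promoter-proximal share of 21.7% became 24.6% with −log10 q of at least 2 in all lists, 24.5% with 50000 peaks per list, 19.0% without members near another peak, 31.5% within that tag, 14% with upstream promoters only and 15.8% with protein-coding genes only, and ranged from 15.5% to 23.7% over the left-out libraries. The intronic share of 37.4% became 39.7% without members near another peak, 33.7% within that tag, 41.7% with upstream promoters only and 35.0% with protein-coding genes only (35.3% to 37.7% over left-out libraries). The distal intergenic share of 36.9% became 34.6% with −log10 q of at least 2 in all lists, 33.7% with it in the alpha lists only, 35.0% with 50000 peaks per list, 31.1% within that tag and 45.6% with protein-coding genes only (35.7% to 45.8%). Alpha cell genes with a member numbered 3 of 18, and 1 with −log10 q of at least 2 in the alpha lists only, 7 by nearest TSS, and 3 to 11 over the left-out libraries. The 1 motif for which both alpha libraries lay outside the range of the others stayed 1 with the members kept among the peaks, a setting added after seeing the data, and became 0 with all promoter-distal peaks and 0 with the 400 bp window, and 1 to 7 with 1 library left out, the highest counts being those with a single alpha library. Under a replicate block, in which each alpha library was set only against the beta and delta library of its number, 5 motifs lay beyond both others in both numbers, where the smallest p is 0.111. Differences between number 1 and number 2 did not run together across the 14 motifs (r = 0.04 for alpha with beta, -0.43 for alpha with delta, -0.41 for beta with delta). These values do not show which libraries came from the same animals. If the labels follow the study's numbering, libraries of 1 number did not share a pool, as they differ by cross or by sex. Except where the construction shows it (fewer lists, fewer peaks), the cause was not tested. Read depth under the peaks, which limits any statement that a region was closed in beta or delta cells, was not analysed here. The study lists fewer unique mapped reads for beta 1, beta 2, beta 3 and delta 2 than for either alpha sample. It lists more for delta 1. If the labels follow that numbering, all 3 beta lists came from shallower libraries than the alpha lists. How far this bears on the missing beta and delta calls was not tested.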
